A study of Mus musculus with 6 samples.

Results

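Retained-intron transcript models are annotated transcripts that keep intron sequence which other transcripts of the same gene splice out. They were described here through a measure of RNA polymerase II position in control and Mettl3 knockout mouse embryonic stem cells. A transcript was a member when its identifier, read without its version, had the type retained_intron in GENCODE mouse release 21. Of the 68473 transcripts in the deposited matrix, 68397 matched that annotation and 15199 were retained-intron models, which lay in 6613 genes. Members were split by where they start relative to the outermost start of their gene. In all, 4691 started within 200 bp of it, 1548 between 200 and 1000 bp, and 8960 more than 1000 bp inside the gene.

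The cells were C57BL/6 embryonic stem cells grown with LIF and the inhibitors CHIR99021 and PD0325901, in 3 groups of 2 libraries each. The groups are labelled Control, KO1 and KO2, the last pair being separate Mettl3 knockouts. The labels do not say how the knockouts were made, whether each is 1 clone, or whether the 2 libraries of a group came from separate cultures. P-values therefore measure only the spread between these libraries, which may be technical. All 8 listed stem cell marker genes had a transcript in the matrix, as had 3 of 8 fibroblast, 2 of 4 trophoblast and 0 of 6 early lineage markers. The index is not an abundance, so it checks neither the loss of Mettl3 nor the level of any marker.

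METTL3 is the catalytic subunit of the enzyme that writes N6-methyladenosine (m6A) on RNA while it is being transcribed. mNET-seq recovers RNA that is bound to RNA polymerase II on chromatin, so it shows where the enzyme sits along genes. Polymerase commonly pauses a short way after a promoter before it is released into the gene body. The escaping index in the matrix is treated as a log2 ratio of signal between positions of a transcript. A higher index is taken here to stand for more signal downstream relative to the start. No source used here gives the windows behind it. A start window at the annotated first base would lie at the promoter for models that start there. For models that start deep in a gene it would lie wherever the annotation places that base. Whether the index uses such a window is not known here. Retained introns can hold an RNA in the nucleus or expose it to decay, and genes for splicing regulators are known for them.

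What defines a member is a splice site that is passed over. In total, 11385 members ran across the 5′ splice site (donor) of an intron that a coding transcript of the same gene removes, 9890 ran across a 3′ splice site (acceptor), and 349 across neither. A whole coding intron lay inside an exon of 4703 members. These 6332 distinct introns were short, with a median of 278 bp (quartiles 117.75 and 728.25 bp), beside 1424 bp for the other 96327 coding introns of the same genes. Of 13772 distinct donors that were passed over, 97.9% began with GT and 1.45% with GC, and 99.3% of 11831 acceptors ended with AG. The exon base before the donor was G in 78.0%, and the fifth intron base was G in 75.4%.

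The sites below belong to the members with the strongest evidence of change in each start class, the first 2 lower and the first higher for which a site was found, with GT or AG sites preferred, and they show where the models read through. Mettl23-207, the second lower member of the middle class, gave no such site and Clk3-207 is shown in its place. Sequences come from the GENCODE release 21 transcripts (mm10), written 5′ to 3′ on the gene's strand. For donors, capitals mark the last 3 exon bases and the first 6 intron bases. For the acceptor of Cycs-201, capitals mark the last 6 intron bases and the first exon base.
Spo11-204 donor, chr2:172984929-172984953, + strand: caaccaaGAGGTAAATatattattc
Cpm-202 donor, chr10:117668112-117668136, + strand: gcaatggCAGGTAAAGatgggtggg
Fbln5-202 donor, chr12:101765141-101765165, - strand: cactgcaGTGGTAATGggctgggca
Pik3c2b-203 donor, chr1:133067220-133067244, + strand: tgctgctCCGGTGAGGaccttcctg
Clk3-207 donor, chr9:57760809-57760833, - strand: tgcttccTCGGTGAGTggtggccag
Cycs-201 acceptor, chr6:50565661-50565688, - strand: ttggatcttttcccTTTTAGAattaaaa
Prrx2-204 donor, chr2:30878582-30878606, + strand: acgtgtcCAAGTAAGTggggtccac
Mdm4-204 donor, chr1:133009122-133009146, - strand: attaacaCAGGTACGTtctaggttt
Myof-204 donor, chr19:37920704-37920728, - strand: tgtttggCAGGTAACAtacagttca
The intron side of the Prrx2-204 donor reads GTAAGT, the textbook form. Those of Spo11-204, Clk3-207 and Mdm4-204 each differ from it by 1 base. The full 9-base form CAGGTAAGT stood at 108 of the distinct donors, or 0.784%.

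Between replicate libraries, the index of the members correlated across transcripts, at r = 0.977 for Control, 0.975 for KO1 and 0.976 for KO2. This is a correlation across transcripts, which share genes and reads and are not independent. The depth of the libraries is unknown from these values, so no counting interval can be given. The median replicate SD of a member was 0.216 for starts within 200 bp, 0.240 for 200 to 1000 bp and 0.307 for starts over 1000 bp inside. Members far inside genes were therefore the noisiest.

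The first question was how polymerase position over these models differed between control and knockout cells. Members that start at the gene start had a lower index in both knockouts, while members that start deep in the gene did not. Within 200 bp, the Control libraries had a median index of 3.33 and 3.35, the KO1 libraries 2.96 and 2.98, and the KO2 libraries 2.80 and 2.80. Every knockout library was under both controls, and KO2 lay below KO1. The change was -0.37 in KO1 and -0.53 in KO2. Between 200 and 1000 bp the medians were 2.21 and 2.22 in Control, 1.97 and 1.98 in KO1, and 1.91 and 1.91 in KO2, changes of -0.24 and -0.31.

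For members that start more than 1000 bp inside, the medians were 0.70 and 0.72 in Control, 0.76 and 0.74 in KO1, and 0.73 and 0.73 in KO2. Here all 4 knockout libraries lay slightly above both controls, by 0.04 in KO1 and 0.02 in KO2. The KO2 value was 0.0089 without Control replicate 1 and 0.029 without Control replicate 2, so it is of the size of the spread between controls. For each class an exact two-sided permutation test of 4 knockout against 2 control libraries gave p = 0.0667, the smallest that 15 splits allow. With 2 libraries against 2, none of these contrasts can go below 0.333, so neither knockout alone can pass the threshold by this test. Over all transcripts the median index changed by -0.22 in KO1 and -0.33 in KO2. The median of the transcripts' own changes was -0.21 and -0.32. With each library centred on its median, the changes in KO1 and KO2 were -0.15 and -0.21 within 200 bp, -0.02 and 0.02 at 200 to 1000 bp, and 0.26 and 0.35 over 1000 bp inside. Centring subtracts 1 value per library, so it turned the sign of the middle class in KO2 and cannot alter a difference between classes.

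**Figure D1:**
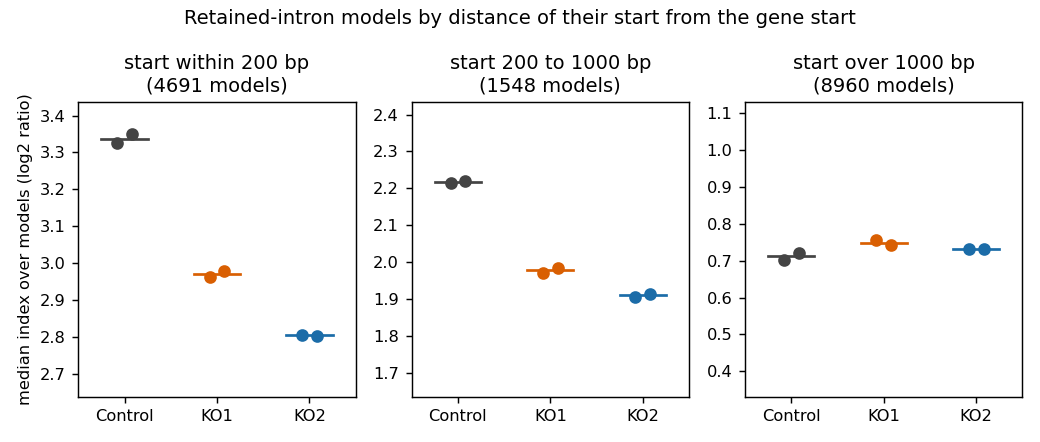
Median escaping index (log2 ratio, y axis) of retained-intron models in each of 6 libraries, 1 panel per start class. Points are libraries, bars are group means and each panel has its own axis range of equal height. The knockouts lie below both controls in the first pair of panels and slightly above them in the third.

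The difference between the outer classes was tested itself. The median of members over 1000 bp inside minus that of members within 200 bp was -2.63 on average in Control, -2.22 in KO1 and -2.07 in KO2. The gap was smaller by 0.40 in KO1 and 0.55 in KO2, with no overlap of libraries, at p = 0.0667 by the exact permutation test, again the smallest possible. Protein-coding transcripts showed the same order with a smaller difference, 0.28 in KO1 and 0.38 in KO2. Coding transcripts that start within 200 bp changed in median by -0.37 and -0.55, and those over 1000 bp inside by -0.09 and -0.17. The start-proximal members thus had changes close to those of coding transcripts, from a lower control median index (3.34 against 4.68). The members deep inside genes did not share the small negative shift of their coding counterparts. The difference between members and coding transcripts was not tested over these classes.

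In finer bins of distance, the change of the median index went from below 0 to near 0 between 500 and 3000 bp. At 0 to 50 bp (2877 members) the change was -0.39 in KO1 and -0.58 in KO2. From 201 to 500 bp (996 members) it was -0.28 and -0.34, and from 501 to 1000 bp (552 members) -0.25 and -0.29. At 1001 to 3000 bp (916 members) it was 0.07 and 0.06, and 49.9% of members in KO1 and 49.0% in KO2 were below 0. Beyond 30000 bp (3015 members) the values were 0.03 and 0.00. Next to the class limits, members at 101 to 200 bp (769) had -0.23 and -0.44 and members at 201 to 300 bp (459) -0.38 and -0.30. Members at 801 to 1000 bp (153) had -0.09 and -0.11, and those at 1001 to 1200 bp (115) had 0.11 and 0.01. The Control libraries of this last bin were apart, at 0.54 and 0.78, as were those of KO2, at 0.82 and 0.52. No sharp edge was seen at 200 bp. The median of the members' own changes shrank gradually with distance. In KO1 it was -0.37 at 0 to 50 bp, -0.24 at 201 to 500 bp, -0.11 at 501 to 1000 bp and 0.0014 at 1001 to 3000 bp. In KO2 it was -0.56, -0.37, -0.19 and 0.010 in the same bins.

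**Figure D2:**
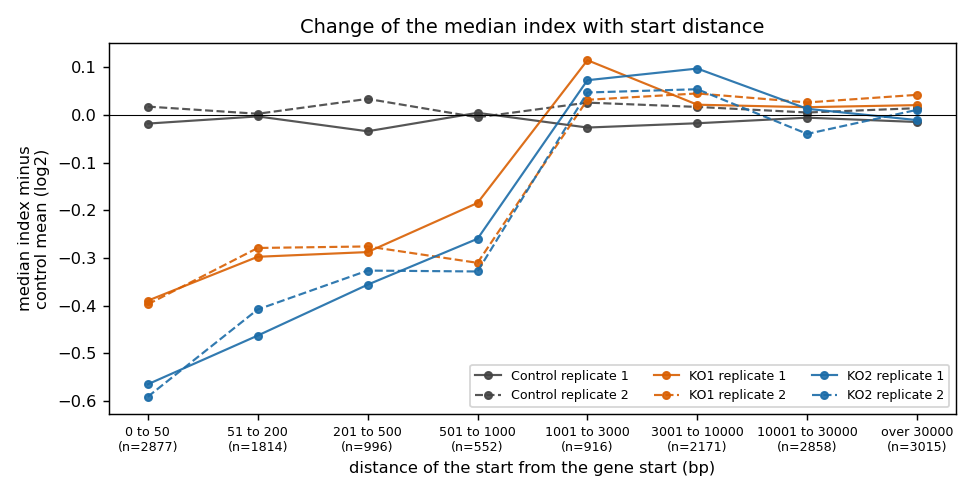
Median index of retained-intron models minus the mean of the 2 Control medians (log2, y axis), by distance of the model's start from the gene start (x axis, bp, with the number of models). Each line is 1 library. The knockout lines lie below the controls up to 1000 bp, from -0.58 to -0.25 as group values, and near 0 beyond it.

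Start-proximal members are longer models, with a median genomic span of 8483 bp against 3116 bp for those over 1000 bp inside. The contrast between these classes was therefore taken at matched span. Among models of 538 to 1669 bp, members within 200 bp changed by -0.32 in KO1 and -0.62 in KO2, and members over 1000 bp inside by 0.04 and 0.03. Among models of 14570 bp or more, the values were -0.36 and -0.54 against -0.05 and -0.11. In all 5 span bins and both knockouts the start-proximal members had the lower change. The control index was higher in longer models, from a median of -0.08 in the shortest to 5.25 in the longest models within 200 bp, and from -1.29 to 3.97 in those over 1000 bp inside. The control gap between these classes is thus smaller at matched span than the -2.63 over all spans. Without matching, 36.9% of members over 1000 bp inside had an index below 0 in controls against 8.53% within 200 bp.

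**Figure D3:**
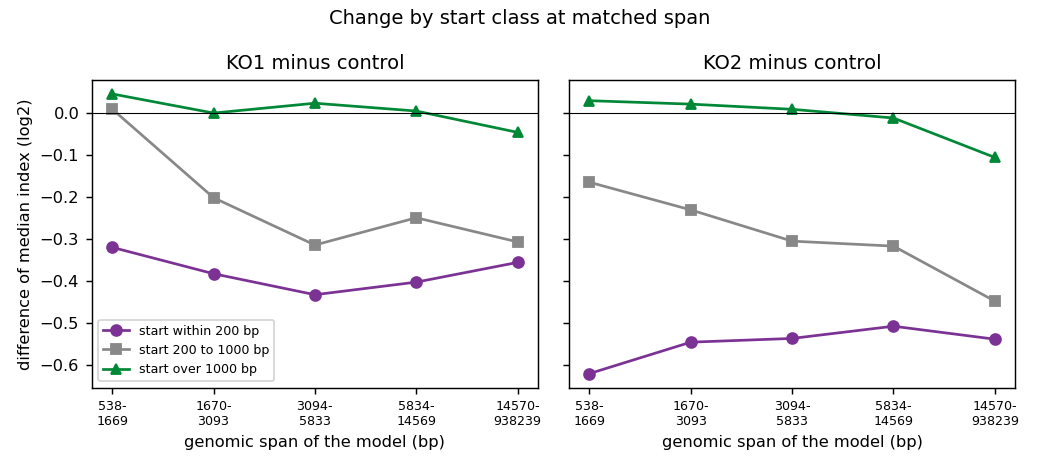
Difference of the median index from Control (log2, y axis) by genomic span of the retained-intron model (x axis, bp), for KO1 and KO2. Markers are start classes. Models starting within 200 bp lie between -0.32 and -0.62 in every bin, and models starting over 1000 bp inside between -0.11 and 0.04.

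Members were also split by whether the annotated start of a coding transcript lay close by. Whether a promoter is active at these starts was not tested. Of members within 200 bp of the outermost gene start, 96.2% had the start of a coding transcript within 200 bp, against 10.7% of those over 1000 bp inside. The 961 deep members beside such an annotated coding start changed by -0.14 in KO1 and -0.30 in KO2. The 7999 with no coding start nearby changed by 0.05 and 0.04, a subset chosen after seeing the data. Among these last, 2383 starting in a coding exon had 0.05 and 0.09, and 5557 starting in a coding intron had 0.03 and 0.00. Start-proximal members with and without a whole intron had close values. Those 1773 that hold one had -0.39 and -0.54, and 2918 that do not had -0.36 and -0.52.

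Members were then set beside the main coding transcript of their own gene, which starts at the gene start. Over 7285 pairs in 3669 genes, the median index of members over 1000 bp inside changed by 0.05 in KO1 and 0.04 in KO2. That of their paired coding transcripts changed by -0.42 and -0.64. The member's index relative to its coding transcript was higher by 0.47 in KO1 and 0.61 in KO2. Exact permutation gave p = 0.0667 for 4 knockout against 2 control libraries, and 0.333 for each knockout alone. The member's change was the higher in 73.5% of pairs in KO1 and 81.7% in KO2. For 4446 pairs with the member within 200 bp, the relative change was only 0.03 and 0.07. For 1639 genes that hold members of both kinds, the members of a kind were averaged per gene. The median over genes changed by -0.35 and -0.52 for those at the start and by 0.01 and 0.03 for those deep inside. One coding transcript can stand in several pairs, so pairs are not independent.

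Tests per transcript used limma over the whole matrix with Benjamini-Hochberg adjustment. In KO2, 1071 members had an adjusted p under 0.05, of which 998 were lower and 73 higher. That is 7.05% of members, beside a background of 10.5% of all transcripts called in either direction, 10.0% lower and 0.407% higher. By class, 715 members fell and 5 rose within 200 bp (15.3% called), 122 fell and 10 rose at 200 to 1000 bp (8.53%), and 161 fell and 58 rose over 1000 bp inside (2.44%). Protein-coding transcripts of the same classes were called more often, at 17.2%, 9.36% and 6.77%. For the average of both knockouts, 864 members fell and 58 rose, 6.07% beside a background of 9.04% (8.69% lower and 0.356% higher). Of those 58, 53 started more than 1000 bp inside a gene, as did 59.0% of all members.

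In KO1 limma called 0 members (background 0%), with a smallest adjusted p of 0.0692. At an unadjusted p under 0.05 it gave 2306 of 15199 members lower and 794 higher, beside 13760 and 2861 of all 68473 transcripts. Every call in KO2 and in the average was lost when any 1 library was left out, or when libraries were centred on their medians. The members named in the next paragraphs are therefore ranked by evidence in these 6 libraries and have no call that survives those settings.

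The order of libraries gives the same picture without a model. All 4 knockout libraries lay below both controls for 48.0% of members within 200 bp (2254), 30.2% at 200 to 1000 bp (468) and 10.9% over 1000 bp inside (980), beside a background of 31.6% of all transcripts. They lay above both controls for 1.75%, 5.88% and 11.4% of the classes, beside a background of 5.67%. These backgrounds are not matched for start class. Deep members thus lay above the controls about as often as below them.

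**Figure D4:**
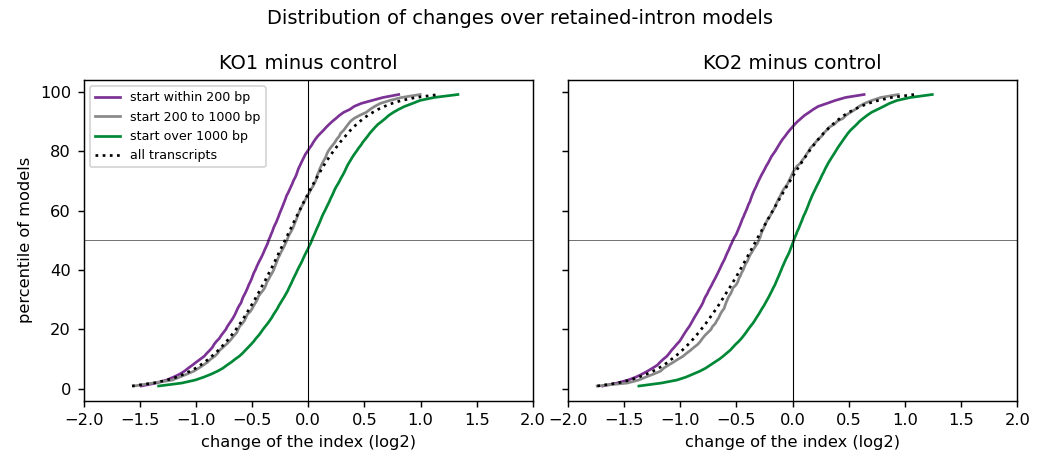
Percentiles (y axis) of the change of the index against Control (log2, x axis) over retained-intron models of each start class and over all transcripts, for KO1 and KO2. The curve of models within 200 bp lies to the left of that of all transcripts except at its lowest percentiles, with 50th percentiles of -0.35 and -0.53, and that of models over 1000 bp inside crosses the 50th percentile near 0.

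Among members that start at the gene start, the strongest evidence for a lower index was in Spo11-204, a model of the gene for the enzyme that makes the DNA breaks of meiosis. Its index was 2.28 and 1.94 in Control, -0.48 and -0.65 in KO1, and 0.02 and -0.17 in KO2. All knockout libraries lay more than a unit below both controls, with KO1 the lowest. The average change was -2.43 ± 0.19 (SE, limma adjusted p = 0.0325). Cpm-202, from the carboxypeptidase M gene, read 3.20 and 3.39 in Control, 1.42 and 1.33 in KO1, and 1.63 and 1.73 in KO2, and fell by 1.77 ± 0.16. Abcc8-208, from the gene for the sulphonylurea receptor of ATP-sensitive potassium channels, fell by 1.54 ± 0.15. Abhd5-207, from the gene for a co-activator of fat breakdown, fell by 1.86 ± 0.18, and Ccdc63-206 by 1.57 ± 0.15. These 3 had a limma adjusted p of 0.0325 as well.

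Higher members at the gene start were few. Fbln5-202, from the gene for fibulin 5 of elastic fibres, read 2.38 and 1.80 in Control, 4.47 and 3.74 in KO1, and 2.63 and 2.68 in KO2. KO2 lay only just above the controls, and the average rose by 1.29 ± 0.28 (limma adjusted p = 0.0475). Gm30363-202 rose by 0.76 ± 0.17 (adjusted p = 0.0491). Tbc1d19-208 had 0.66 ± 0.15 and did not pass (adjusted p = 0.0509). In KO2 alone, Mttp-203 of the gene for microsomal triglyceride transfer protein rose by 1.58 ± 0.27 and Ankmy2-202 by 1.09 ± 0.22 (limma adjusted p 0.0349 and 0.0405). 4930578M01Rik-203 was also called higher there, but its Control libraries read 0.00 and 1.15, the first being a ratio of 1 plus offset.

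Between 200 and 1000 bp, members of 2 kinase genes were among the lowest. Pik3c2b-203, from a class II phosphoinositide 3-kinase gene, read 5.32 and 5.63 in Control, 3.74 and 3.62 in KO1, and 3.42 and 3.84 in KO2, and fell by 1.82 ± 0.19. Clk3-207, from a gene for a kinase that phosphorylates SR splicing proteins, read 4.65 and 4.68 in Control, 3.32 and 3.27 in KO1, and 3.41 and 3.67 in KO2. Both sets of knockout libraries lay about a unit below the controls, and the member fell by 1.25 ± 0.15. The main coding transcript Clk3-201 had wide replicates, 4.46 and 4.94 in Control against 5.46 and 4.23 in KO2, and a KO2 adjusted p of 0.856. Mettl23-207, Zdhhc9-204 of a palmitoyltransferase gene and Smox-214 of the spermine oxidase gene fell by 1.34 ± 0.16, 1.24 ± 0.15 and 1.19 ± 0.14. All of these had a limma adjusted p of 0.0325.

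Cycs-201, from the cytochrome c gene, led the higher members of this middle class. It read -1.23 and -0.76 in Control, 1.32 and 1.09 in KO1, and -0.46 and -0.19 in KO2. All knockout libraries lay above both controls and KO1 was far above KO2. The average rose by 1.44 ± 0.22 (limma adjusted p = 0.0335). Cox6b2-205, from a gene for a cytochrome c oxidase subunit, rose by 1.14 ± 0.19 from a very low control mean, with -6.81 and -6.93 in Control. Srpk1-206, from a gene for another SR protein kinase, rose by 0.74 ± 0.14 (adjusted p = 0.0410).

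Deep inside genes, 3 of the 5 named lower members sat beside another coding start. Prrx2-204, from a homeobox gene, starts 10472 bp inside with no coding start nearby and read 5.18 and 5.13 in Control, 2.88 and 2.92 in KO1, and 3.25 and 3.45 in KO2, a fall by 2.03 ± 0.15 with replicates close together. Mdm4-204, from the gene for a p53 inhibitor, starts 5231 bp inside beside a coding start. It read 7.28 and 7.17 in Control, 5.78 and 5.76 in KO1, and 5.84 and 5.98 in KO2, a fall by 1.38 ± 0.15. Fbxl2-203, of an F-box protein gene, and Mast3-202, of a kinase gene, also lay beside a coding start and fell by 1.27 ± 0.14 and 1.53 ± 0.17. Cpd-202, of the carboxypeptidase D gene, had no coding start nearby either and fell by 1.95 ± 0.22. All 5 had a limma adjusted p of 0.0325. Of the 133 deep members called lower in the average, 75 (56.4%) had a coding start within 200 bp, beside 10.7% of all deep members. Of the 53 called higher, 4 (7.55%) had one, near that share.

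The deep members that rose were set beside the main coding transcript of their gene. Myof-204, from the gene for the membrane protein myoferlin, starts 103596 bp inside and read 0.52 and 0.70 in Control, 1.59 and 1.67 in KO1, and 2.40 and 2.61 in KO2. It rose by 1.45 ± 0.17 (limma adjusted p = 0.0325). The coding transcript Myof-202 read 7.44 and 6.20 in Control and 4.03 and 3.81 in KO2. Anapc4-210, from a gene for a subunit of the anaphase-promoting complex, read 2.86 and 2.61 in Control, 4.25 and 4.04 in KO1, and 3.93 and 4.26 in KO2. Its coding transcript Anapc4-201 read 4.00 and 4.38 in Control and 3.57 and 3.15 in KO2, so the order of member and coding transcript in the index was turned over.

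Nr4a1-204, from an immediate early nuclear receptor gene, read -1.81 and -2.25 in Control, 0.23 and 1.00 in KO1, and -0.22 and -0.58 in KO2. It rose by 2.14 ± 0.29, the largest rise among the 5 named deep members. Uba2-210, from the gene for a subunit of the SUMO-activating enzyme, rose by 1.78 ± 0.26, and Ulk3-203, from a kinase gene, by 1.17 ± 0.17 (limma adjusted p 0.0331 for each of the 3). Of the 53 deep members that rose, 44 had a main coding transcript in the matrix. In 39 of these the coding transcript's average change was below 0, with a median of -0.56 beside 1.03 for the members, and 9 of the coding transcripts were themselves called lower. Over all protein-coding transcripts within 200 bp, 86.1% were below 0 and 14.7% called lower, so a negative change of the coding transcript is no mark of these genes. By contrast, 628 start-proximal members were called lower and 609 of them had a main coding transcript, of which 608 were below control and 440 called lower too, beside the same 86.1% and 14.7%. Such members share their start with the coding transcript, and their values rest on overlapping signal.

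**Figure D5:**
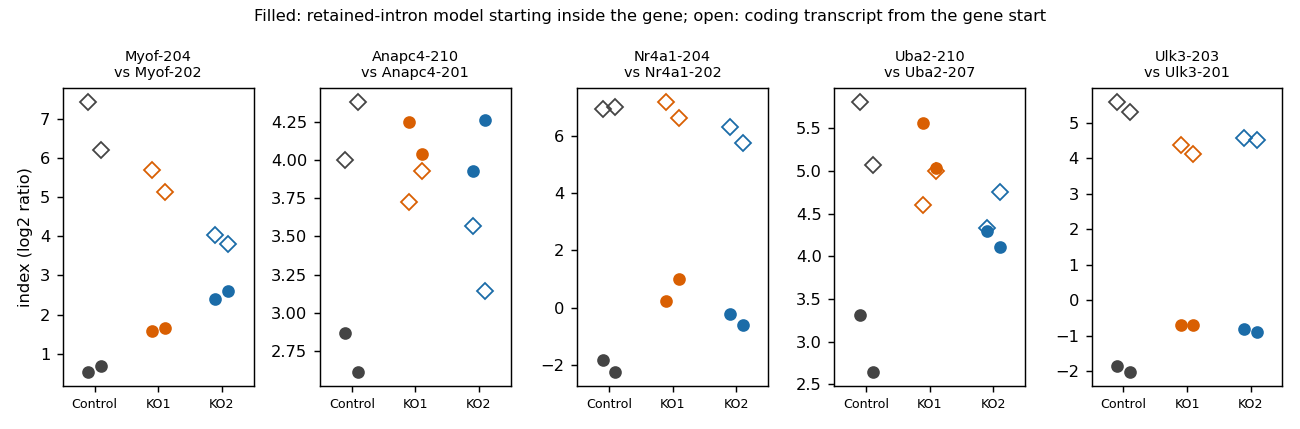
Escaping index (log2 ratio, y axes) of 5 retained-intron models that start over 1000 bp inside their gene (filled circles) and of the coding transcript from the gene start (open diamonds), per library and group. In each panel the filled circles are higher in both knockouts than in Control. The coding transcript of Myof goes from 7.44 and 6.20 in Control to 4.03 and 3.81 in KO2.

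The test of KO2 against Control ranked further members first, and those given here were also called in the average. Nudt8-202, of a gene for a mitochondrial hydrolase, fell by 1.87 ± 0.19 and Ppp1r10-204, of the gene for the nuclear phosphatase regulator PNUTS, by 1.78 ± 0.20. Pak6-203 and Nbea-207, of a kinase and the neurobeachin gene, fell by 2.28 ± 0.28 and 2.24 ± 0.27, with adjusted p of 0.0340 for all 4 of these. Pla2g4f-202, of a phospholipase gene, rose by 1.52 ± 0.21 (limma adjusted p = 0.0340). In KO1, where nothing passed, Hadha-203 had 1.03 ± 0.18, Urb1-201 1.09 ± 0.21, Slc7a3-205 0.98 ± 0.17 and Aida-205 1.33 ± 0.18, at limma adjusted p between 0.0692 and 0.0741.

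Members in genes of the splicing machinery were described by lists. Medians given for a list, and for all transcripts beside it, are medians of the transcripts' own changes. The lists differ in start class, and the shares of all transcripts beside them are not matched for it. Starts over 1000 bp inside made up 13 of 27 SR protein and 15 of 21 CLK and DYRK members. They made up 47 of 57 hnRNP and 61 of 103 core spliceosome members. SR protein genes held 27 members, of which 3 fell and 0 rose in KO2, with a median change of -0.21 beside -0.32 over all transcripts. This is 11.1% lower, close to the 10.0% of all transcripts. The 3 were Srsf1-206, Srsf6-204 and Srsf11-215, and in the average only Srsf11-215 was called, at -0.98 ± 0.17 (limma adjusted p = 0.0359). That is 3.7% lower in the average, beside 8.69% of all transcripts. CLK and DYRK kinase genes, whose introns are known to be detained in the nucleus, held 21 members with 5 falls and 0 rises in KO2 (23.8% lower, beside 10.0% of all transcripts) and a median of -0.46 beside -0.32. These were Clk3-203, Clk3-207 and 3 models of Clk4 that start next to one another, so they stand for 2 places. Clk4-207 read 2.11 and 2.38 in Control, 1.50 and 1.36 in KO1, and 1.03 and 1.11 in KO2. In the same gene family, Clk1-206, starting 2808 bp inside, read 0.45 and 0.40 in Control and 0.69 and 0.68 in KO2 without passing.

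Core spliceosome genes held 103 members, of which 5 fell and 2 rose in KO2 (4.85% and 1.94%, beside 10.0% and 0.407% of all transcripts), with a median of -0.17 beside -0.32. All 5 falls were within 200 bp of the gene start, among them Eftud2-203, Eftud2-210 and Snrpb-204, and both rises were deep inside. Sf3b1-204, from the gene for the largest SF3b subunit, read -3.27 and -3.29 in Control, -2.23 and -2.40 in KO1, and -2.22 and -2.32 in KO2. It rose by 0.99 ± 0.18 in the average (limma adjusted p = 0.0376). Rbm17-204, from a splicing factor gene, rose by 1.02 ± 0.20 in the average. Genes for hnRNP proteins held 57 members with 0 calls in KO2 by limma, beside 10.5% of all transcripts. Their median was -0.07 beside -0.32. At an unadjusted p under 0.05, 7 of them were lower and 0 higher, beside 19855 and 2113 of all 68473 transcripts. In the average Hnrnpll-206 fell and Ptbp2-211 rose, 1.75% each way, beside 8.69% lower and 0.356% higher over all transcripts. Ogt, Oga and Mat2a and their relatives held 10 members. By limma 0 were called in KO2 or in the average, beside 10.5% and 9.04% of all transcripts. Their KO2 median was -0.37 beside -0.32. At an unadjusted p under 0.05, 2 were lower and 0 higher in KO2, beside the same 19855 and 2113 of all 68473 transcripts.

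Genes of the m6A machinery held 20 members in 8 genes. Of these members, 14 started over 1000 bp inside, a class in which 1.8% of all members fell in KO2. On this list 1 member fell in KO2, or 5% beside 10.0% of all transcripts. This was Igf2bp3-205, of a gene for an m6A reader, which starts 120746 bp inside and read 2.82 and 2.99 in Control, 2.00 and 1.94 in KO1, and 2.02 and 2.11 in KO2. Mettl3 itself held 5 members. Mettl3-215, which starts 4 bp from the gene start, read -1.39 and -1.37 in Control, -1.36 and -1.65 in KO1, and -1.83 and -2.12 in KO2. None of the 5 passed in either knockout or in the average, beside 10.5% of all transcripts in KO2 and 9.04% in the average. Pluripotency genes held 3 members, with 0 called in KO2 by limma, beside 10.5% of all transcripts. At an unadjusted p under 0.05, 1 was lower and 0 higher in KO2, beside 19855 and 2113 of all 68473 transcripts.

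Host genes of small nucleolar RNAs (snoRNAs), short RNAs that guide modification of other RNAs and are cut from introns, held 81 members. Of these, 16 started within 200 bp, 30 at 200 to 1000 bp and 35 over 1000 bp inside. The median change of the 81 was 0.18 in KO2 beside -0.32 over all transcripts, and 0.06 in KO1 beside -0.21. In KO2, 6 fell and 5 rose, 7.41% and 6.17% beside 10.0% and 0.407% of all transcripts. In the average 0 fell and 1 rose, 0% and 1.23% beside 8.69% and 0.356% of all transcripts. The genes with most members were Gas5 with 20, Cspp1 with 16 and Eif4a2 with 15, and Gas5 and Eif4a2 are on this list. The member of Cspp1, a gene for a centrosome and spindle pole protein, with the smallest p was Cspp1-208, at -0.50 in the average (limma adjusted p = 0.0979). Gas5-215, which covers 2 snoRNA genes, read 0.10 and 0.00 in Control, 0.43 and 0.47 in KO1, and 1.26 and 1.30 in KO2. It rose in KO2 by 1.23 ± 0.18 (limma adjusted p = 0.0341). Eif4a2-219, of a translation initiation factor gene, rose there by 0.86 ± 0.17, together with 3 other Eif4a2 models that start within 20 bp of it and share its signal. On the other side, Rpl13a-209 and Rpl13a-213 of a ribosomal protein gene, Nop56-208, Snhg1-209, Snhg1-216 and Snhg5-205 fell in KO2, each covering 2 or 3 snoRNA genes. Their control index was far below 0, down to -5.49 and -5.42 for Snhg1-216. Whether RNA of the snoRNAs themselves enters these values was not tested.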

How the data were processed

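Chromatin-bound RNA was recovered with an antibody to RNA polymerase II, per the labels' protocols, from 6 libraries in 3 groups of 2. The submitters' processing notes name CASAVA, Trimmomatic 0.38, HISAT2 2.1.0, featureCounts and the build mm10. The authors deposited 1 matrix of log2 escaping indices per transcript. It holds no counts, so the depth is unknown. Values are treated as log2 ratios with a small library-specific offset, as read from the values, and a library with ratio 1 is named where it bears on a member.

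Transcripts were matched to GENCODE mouse release 21 (also mm10). limma 3.58.1 (R 4.3.3; group means, trend) was fitted to all 68473 transcripts, with Benjamini-Hochberg adjustment and a threshold of 0.05, for KO1, KO2 and their average against Control and for KO1 against KO2. Errors of changes are limma standard errors. Class medians were compared over libraries by exact permutation (Python 3.11.15, pandas 2.3.3, numpy 2.4.6, scipy 1.17.1). The permutation of 4 knockout against 2 control libraries was not planned and treats both knockouts as 1 group. The code was tested on simulated data. The main coding transcript of a gene is the coding transcript within 200 bp of the outermost start that lies closest to it, and the longest in span among ties. Members named are, per class and direction, up to 5 with the smallest p for the average and up to 3 for each knockout, 1 per gene, with all knockout libraries on one side of both controls, plus 2 to 4 per list. Sequences were planned for starts of the first 2 members named per class, but splice sites are shown, with canonical ones preferred. Members and the 8 gene lists were chosen with earlier results of these data known. Replicate numbers did not pair libraries: deviations of same-numbered libraries correlated at -0.0077, -0.0014 and 0.0149 across groups. Alternatives were other scalings, offsets, filters, samples in the fit, 1 library left out and a replicate block.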

Additional observations from a re-analysis of the deposited data

Results flagged for a closer look

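In 6 members the KO1 libraries lay on one side of both controls and the KO2 libraries on the other. They were picked as those with the smallest p for KO1 against KO2, so the differences are a description. limma called 0 members in that contrast, with a smallest adjusted p of 0.186, which these 6 share. At an unadjusted p under 0.05, 713 of 15199 members were lower in KO1 and 1476 higher, beside 2959 and 8270 of all 68473 transcripts. KO2 minus KO1 was 1.42 in Zfas1-203, 1.48 in Rpl21-205 and 1.90 in Prtg-202. It was -2.07 in Acad11-205, of a gene for a fatty acid oxidation enzyme, -1.78 in Prkar2a-204, of a protein kinase A regulatory subunit gene, and -2.23 in Itga5-203, of the integrin alpha 5 gene. Zfas1-203, of a snoRNA host gene, read 0.24 and 0.32 in Control, 0.16 and 0.00 in KO1, and 1.44 and 1.57 in KO2, and it covers 2 snoRNA genes. Rpl21-205, of a ribosomal protein gene, covers 1. The second Control library of Prtg-202 and the second KO1 library of Itga5-203 hold a ratio of 1 plus offset. Over all members, 374 (2.46%) had KO1 above and KO2 below the controls and 214 (1.41%) the reverse, beside 2.56% and 1.23% of all transcripts.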

How the results depend on the processing

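Counts of called members in KO2 and the average were 1055 and 919 with a pseudocount, 1077 and 954 with one 10 times larger, 995 and 859 with identical transcripts once, and 1065 and 927 without the lowest 10%. Other settings lost all or many of them. With median centring, quantile normalization or members fitted alone, limma called 0 members in KO2 and 0 in the average, and 0 in KO2 when only those groups were fitted. Leaving out any 1 library gave 0 in each case (lowest and highest both 0). With the replicate block, 0 members were called in either, and the numbers do not pair the libraries. With the 4 knockout libraries as 1 group, 376 were called in the average. The cause was not tested.

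Within 200 bp, at 200 to 1000 bp and over 1000 bp inside, median centring gave -0.15, -0.018 and 0.26 in KO1 and -0.21, 0.022 and 0.35 in KO2, the middle class turning in KO2. Quantile normalization gave -0.14, -0.063 and 0.16, and -0.20, -0.021 and 0.26, with class differences of 0.31 and 0.46 and within-gene differences of 0.31 and 0.43. Without the lowest 10% of values, KO1 had -0.21 in the middle class and 0.42 within genes, and KO2 had -0.49 within 200 bp, 0.0014 over 1000 bp and 0.49 between classes. For KO2, the middle class and the class difference were -0.30 and 0.55 with a pseudocount, -0.34 and 0.57 with 1 value per gene, -0.32 and 0.57 by distance from the coding start, -0.21 and 0.53 in genes overlapping no other, and -0.33 and 0.55 without small RNA genes, an alternative added after seeing the data. Genes overlapping no other had -0.34 in KO1 and -0.50 in KO2 within 200 bp. Deep members with no coding start nearby had 0.055 and 0.042, with a KO2 class difference of 0.58. Every other class value kept its direction. Among named members, which never passed in those settings, Tbx3-204 turned to 0.0037 with median centring, and Dppa4-203 to 0.25 there, 0.19 with quantile normalization, 0.0056 without Control replicate 2 and 0.069 without KO2 replicate 1 (lowest -0.11, without KO2 replicate 2).

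Depth is unknown, 2 libraries a group leave 3 residual degrees of freedom, and overlapping models share signal.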

Other observations

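Across all start classes, 304 members cover a snoRNA gene. Their median index was 3.12 and 3.22 in Control, 3.04 and 3.09 in KO1, and 3.21 and 3.16 in KO2, so the KO2 libraries fell among the controls. The change was -0.10 in KO1 and 0.02 in KO2. In KO2, 23 of these members fell and 10 rose by limma, or 7.57% and 3.29%, beside 10.0% and 0.407% of all transcripts. The other members overlap no snoRNA gene, and no test of the difference was made.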
